A study of Homo sapiens with 4 samples.

Results

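The genes described here are 31 targets of the hypoxia-inducible factors (HIF) that act outside glycolysis and growth factor signalling. They were taken by name as known HIF targets, with no measured value in the rule. The list was chosen with earlier results of these data known, so it is not independent of them. All 31 were found among the 56753 loci of the expression table. Of these, 27 were alone at their locus and 4 (BHLHE41, ZNF395, JMJD6 and EFNA3) shared a locus with other names. The samples were 786-O cells, an established human clear cell renal cell carcinoma line grown adherent under standard culture conditions, which were stably transduced with control vector in 2 libraries and with PRDM16 lentivirus in the other 2. RNA-seq was used to ask how overexpression of PRDM16, a zinc finger transcriptional regulator, affects the transcriptome of these cells. The labels do not state whether transduced cells were a clone or a pool, nor whether replicates were separate cultures, so every p-value reflects the spread of these 4 libraries alone and may be measuring technical spread.

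HIF is a heterodimer of an oxygen-regulated alpha subunit and the stable subunit ARNT. In normal oxygen, prolyl hydroxylases mark the alpha subunit and the VHL ubiquitin ligase directs it to destruction. 786-O cells lack functional VHL, so HIF targets can be on without hypoxia, driven mainly by HIF-2 alpha (EPAS1). The targets treated here include enzymes that control acidity and modify collagen, chromatin oxygenases, repressors that form feedback loops, mitophagy receptors and secreted hormones.

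PRDM16 was at 0.0157 and 0.234 FPKM (fragment counts corrected for transcript length and library size) with the control vector, and at 1226 and 1146 FPKM with PRDM16. Each library had between 23138 and 24490 loci above 0. Renal epithelial markers were present, with summed levels of 391 to 424 FPKM over 9 genes, and 6 of those 9 had a mean of at least 1 FPKM. The summed level stayed at or below 0.280 FPKM for 7 blood cell markers and 0.576 FPKM for 6 endothelial markers. It was 3.27 to 4.33 FPKM for 5 fibroblast and muscle markers. Only markers alone at their locus were summed, which left out CDH6, KRT18, CD68, COL3A1 and PDGFRA. The shared locus of CD68 was at 362 to 477 FPKM and that of PDGFRA at 31.1 to 39.6 FPKM, and neither can be assigned to the marker. CD3E, MS4A1, HBB, DCN and MYH11 were listed at 0 in all 4 libraries.

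No HIF target of this set passed the test between PRDM16 and control vector, but lower means were more frequent than over the whole table, as they also were for genes of the ATF4 and unfolded protein response (20 of 20 lower). Of the 27 genes alone at their locus, 24 had a mean of at least 1 FPKM and were tested with limma on log2(FPKM + 1), and CA9, CXCR4 and PPFIA4 fell under that minimum. A total of 0 of 24 were called at an adjusted p under 0.05, where 0.0226% of the 13246 loci tested were called. At an unadjusted p under 0.05 there were 2 of 24 genes (8.33%), KDM3A and CITED2, beside 811 of the 13246 loci in either direction. Both genes were lower, as were 3.70% of all loci at that level. The mean was lower with PRDM16 for 19 of 24 genes (79.2%, beside 49.3% of all loci) and higher for 5. The median log2 change was -0.21, with a range from -0.56 for STC2 to 0.15 for FAM162A, beside a median of 0.00399 over all loci. In RNA from whole cultures, fewer cells expressing a gene and less of its RNA per cell cannot be told apart.

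In 9 of the 24 genes both PRDM16 libraries lay below both control vector libraries. That is 37.5% of the genes, beside 20.3% of all loci and 18.6% of the loci with a mean of at least 5 FPKM, a level that 23 of the 24 reached. The 9 were ADM, ANKZF1, BHLHE40, CITED2, INSIG2, KDM3A, KDM4B, PLOD2 and WSB1. In 2 genes, FAM162A and PLOD1, both PRDM16 libraries lay above, which is 8.33% beside 21.1% of all loci. The libraries overlapped in the other 13.

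The count of lower genes rested in part on 1 library. Control vector replicate 2 was the highest of the 4 libraries for 17 of 24 genes (70.8%), beside 33.9% of all loci. Against control vector replicate 1 alone, 15 of 24 genes were lower with PRDM16 (62.5%, beside 51.0% of all loci), with a median log2 change of -0.054. Both PRDM16 libraries then lay below that single control in 10 genes (41.7%, beside 36.2% of all loci). Against control vector replicate 2 alone, 20 of 24 were lower (83.3%, beside 48.2% of all loci), with a median of -0.38. The sign was lower against each control library for 13 genes, higher against each for 2, and differed between them for 9. The same shares of all loci were not computed. The 13 include changes near 0, such as -0.00046 for P4HA2 against replicate 1, and -0.018 and -0.004 for BNIP3 against replicates 1 and 2.

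**Figure D1:**
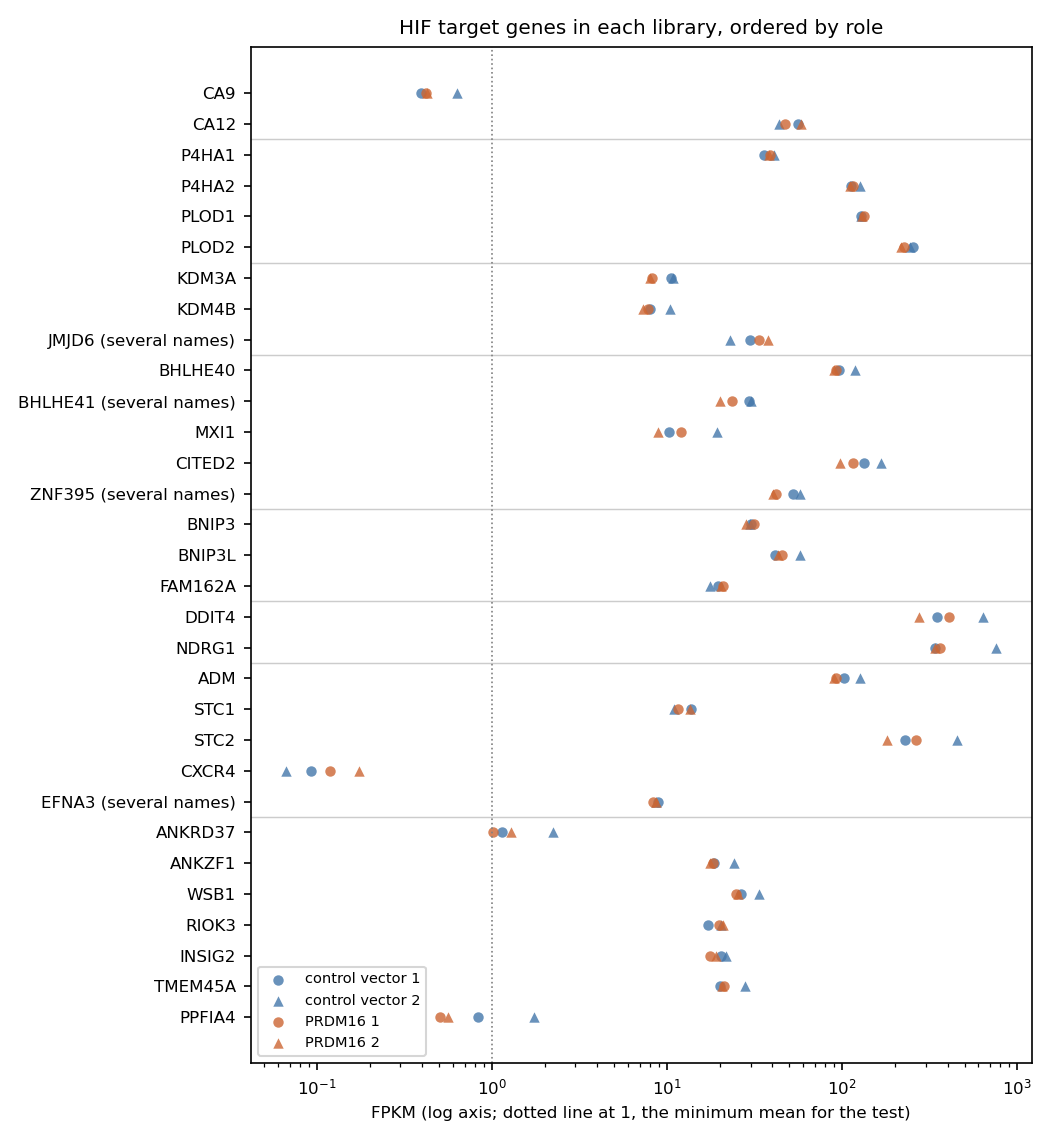
FPKM (log axis) of the 31 HIF targets in each of the 4 libraries, with control vector in blue, PRDM16 in orange, circles for replicate 1 and triangles for replicate 2; grey lines separate roles. NDRG1, DDIT4 and STC2 were the most abundant, with control vector replicate 2 far to the right, while CA9 and CXCR4 stayed under 1 FPKM in every library.

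The core of the HIF binding element is ACGTG or GCGTG, and the stretches below show where these letters lie just before the start of 7 of the genes: CA9 and BNIP3, best known as targets of HIF-1 and at very different levels here; KDM3A, CITED2, ADM and BHLHE40, with lower values in both PRDM16 libraries; and DDIT4, whose control libraries differed widely. Sequences are from RefSeq on GRCh38.p14, read 5′ to 3′ on the gene's strand, and capitals mark the core on either strand (CACGT and CACGC are the reverse complements).

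CA9, chr9:35673898-35673926, plus strand: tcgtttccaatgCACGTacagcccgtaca

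BNIP3, chr10:131982040-131982069, minus strand: gcgCACGCgccgCACGTGccaCACGCaccc

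KDM3A, chr2:86441333-86441361, plus strand: ccgggaggctgtGCGTGtcttgtgagagc

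CITED2, chr6:139374784-139374813, minus strand: cagcctctgcagCACGTGccgcgggcggcg

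ADM, chr11:10304960-10304988, plus strand: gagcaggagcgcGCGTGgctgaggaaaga

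BHLHE40, chr3:4979251-4979279, plus strand: ggcagtggccagACGTGcctggagtcaca

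DDIT4, chr10:72273787-72273815, plus strand: agaacgttgcttACGTGcgcccggagtcc

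RefSeq promoter windows were at hand for 25 of the 31 genes, and the 250 bases before each start were searched on both strands. A core of either form was found for 23 of 25 genes (92.0%), beside 56.8% of 15842 protein-coding genes with a window. ACGTG was present in 16 of the 25 (64.0%, beside 25.3%) and GCGTG in 18 (72.0%, beside 45.6%). The windows of the HIF targets also held more CpG dinucleotides, with a median of 24 beside 19 for protein-coding genes, and its part in the difference was not tested. These genes are on the list because they are known HIF targets, so the share describes the list and is not a result of the libraries. An ACGTG inside CACGTG, as in BNIP3 and CITED2, is also the E-box read by other factors, including BHLHE40 and the MYC and MAX family. TMEM45A and P4HA2 had neither form in the window searched.

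**Figure D2:**
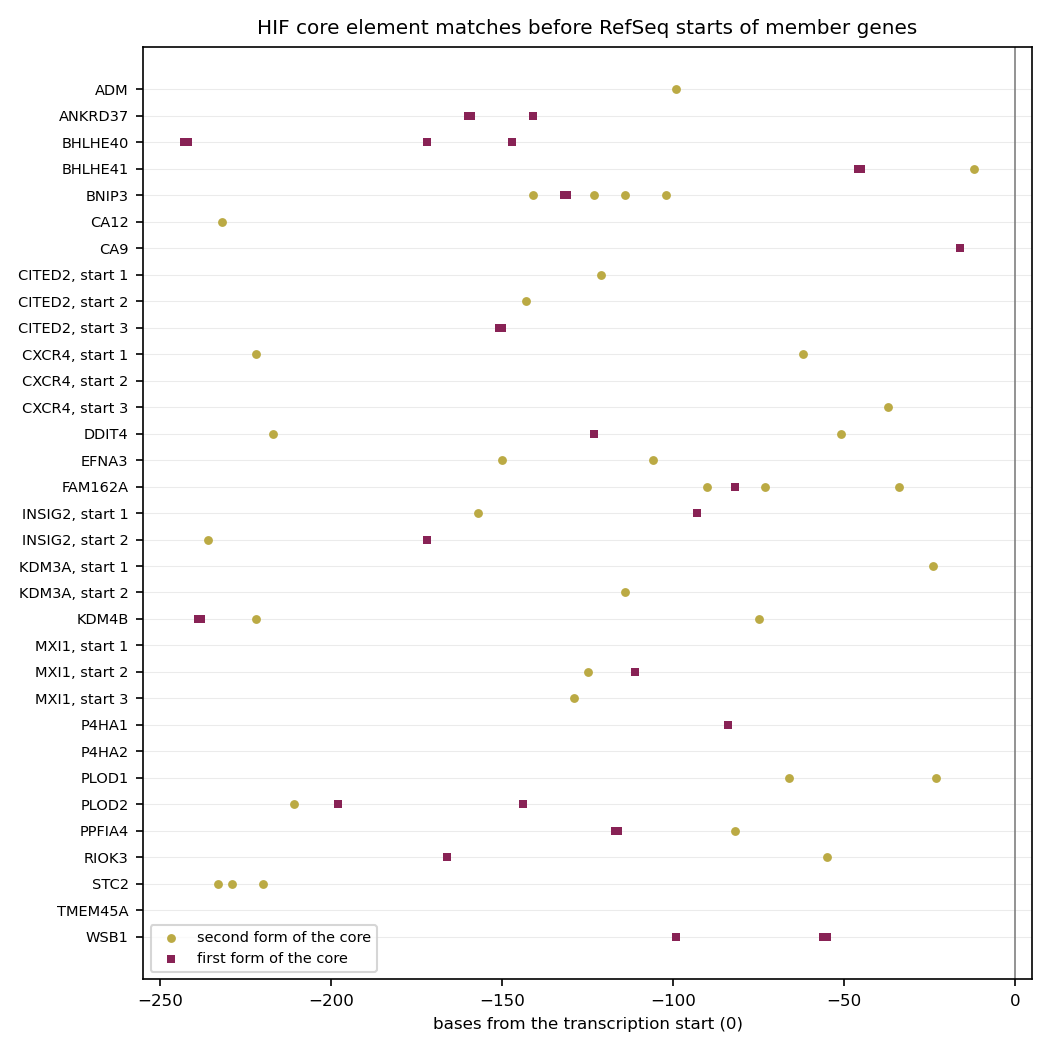
Position of core matches in bases before the transcription start for each RefSeq window of the 25 HIF targets, with squares for ACGTG (first form) and circles for GCGTG (second form) on either strand. The match of CA9 lies close to its start, BNIP3 carries a cluster of 6 matches counting both strands of its CACGTG, and TMEM45A and P4HA2 have none.

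The membrane carbonic anhydrases, which hydrate carbon dioxide and set the acidity outside the cell, were at very different levels. CA12 was at 55.7 and 43.3 FPKM with the control vector and at 47.4 and 58.3 FPKM with PRDM16. The groups overlapped fully, with a high and a low library in each. CA9 was at 0.394 and 0.629 FPKM against 0.421 and 0.425 FPKM, below the minimum for the test in all 4 libraries. Since FPKM are per length, the 2 levels can be set side by side, and CA12 stood 68.9 to 142 times above CA9.

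Among the 4 collagen-modifying enzymes tested, only PLOD2 lay below the controls in both PRDM16 libraries (beside 20.3% of all loci). PLOD2, a lysyl hydroxylase that prepares collagen for cross-linking, was at 255 and 244 FPKM with the control vector and 226 and 217 FPKM with PRDM16, a log2 change of -0.17 (SE 0.08). PLOD1, the related enzyme, was at 128 and 129 FPKM against 134 and 130.0 FPKM, with a log2 change of 0.04 (SE 0.08). Thus PLOD2 stood 1.90 to 1.99 times above PLOD1 with the control vector and 1.67 to 1.69 times above it with PRDM16. The catalytic subunits of collagen prolyl hydroxylase overlapped between groups. P4HA1 was at 35.9 and 41.0 FPKM against 38.5 and 38.1 FPKM. P4HA2 was at 113 and 127 FPKM against 115 and 110.4 FPKM. P4HA2 held a ratio to P4HA1 of 2.90 to 3.14 over the 4 libraries.

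The 2 JmjC histone demethylases tested, KDM3A and KDM4B, were lower in both PRDM16 libraries, as were 20.3% of all loci. The locus of the related JMJD6 was higher in both. KDM3A and KDM4B are oxygen-consuming enzymes that remove methyl groups from histone lysines and are themselves induced by HIF. KDM3A was at 10.5 and 10.9 FPKM with the control vector and 8.21 and 8.04 FPKM with PRDM16. The replicates lay close together in each group, at 10.7 ± 0.261 against 8.12 ± 0.115 FPKM (SD, n = 2), 1.31-fold lower on the means. KDM3A spans chromosome 2 from 86440647 to 86492716, plus strand (GENCODE 29, GRCh38). The fitted log2 change was -0.36 (SE 0.09, limma adjusted p = 0.689), with -0.33 against control vector replicate 1 alone and -0.38 against replicate 2 alone. KDM4B was at 8.04 and 10.4 FPKM against 7.74 and 7.25 FPKM, with a log2 change of -0.26 (SE 0.15) that was -0.09 against control vector replicate 1 alone. JMJD6, a related oxygenase, was measured at a locus that also names uc_338. That locus was at 29.9 and 22.9 FPKM against 33.7 and 37.8 FPKM, higher in both PRDM16 libraries, with a log2 change of 0.43 (SE 0.16, limma adjusted p = 0.689).

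Transcriptional regulators induced by HIF were lower on the means, with 3 of 3 tested genes lower and 2 of them without overlap (beside 49.3% and 20.3% of all loci). CITED2, which competes with HIF alpha subunits for the coactivators CBP and p300 and so damps the response, was at 134 and 166 FPKM with the control vector and 115 and 97.4 FPKM with PRDM16. Every PRDM16 value lay below every control value, at 150.1 ± 23.1 against 106 ± 12.6 FPKM (SD, n = 2), 1.41-fold lower on the means. CITED2 spans chromosome 6 from 139371807 to 139374620, minus strand, in the same annotation. The log2 change was -0.49 (SE 0.15, limma adjusted p = 0.689), and -0.33 against control vector replicate 1 alone. BHLHE40, a basic helix-loop-helix repressor, was at 95.8 and 118 FPKM against 91.7 and 89.5 FPKM, with a log2 change of -0.23 (SE 0.13) that was -0.08 against control vector replicate 1 alone. Its paralog BHLHE41 shares a locus with RP11-283G6.3, which was at 29.5 and 30.2 FPKM against 23.6 and 20.2 FPKM. The control libraries agreed closely there, and the log2 change of the locus was -0.44 (SE 0.11).

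MXI1 encodes a partner of MAX that opposes MYC. It was at 10.3 and 19.4 FPKM with the control vector and 12.1 and 8.83 FPKM with PRDM16, so control vector replicate 2 stood apart and the groups overlapped. The difference of the means for MXI1 was -0.42 on the log2 scale (SE 0.32, limma adjusted p = 0.693), and 0.00481 against control vector replicate 1 alone. ZNF395, a zinc finger factor induced by hypoxia, shares its locus with FBXO16. The locus was at 52.3 and 57.8 FPKM against 41.9 and 40.3 FPKM, with a log2 change of -0.41 (SE 0.10), and cannot be assigned to either gene. The loci of BHLHE41, ZNF395 and JMJD6 each had an unadjusted p under 0.05, and none was called (limma adjusted p = 0.689 for each).

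The mitochondrial genes differed little between groups. BNIP3 and BNIP3L encode receptors on the outer mitochondrial membrane that mark mitochondria for mitophagy. BNIP3 was at 30.2 and 29.9 FPKM with the control vector and 31.5 and 28.3 FPKM with PRDM16, with the control pair inside the PRDM16 pair. BNIP3L was at 41.2 and 57.3 FPKM against 45.5 and 42.8 FPKM, with 3 libraries close together and control vector replicate 2 above them. FAM162A, a mitochondrial protein linked to hypoxic cell death, was at 19.5 and 17.7 FPKM against 21.0 and 20.3 FPKM, higher in both PRDM16 libraries by 0.15 on the log2 scale (SE 0.10).

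The stress genes DDIT4 and NDRG1 were the 2 most abundant of the set and showed wide gaps between the control libraries. DDIT4, an inhibitor of the growth kinase complex mTORC1, was at 349 and 636 FPKM with the control vector and 406 and 274 FPKM with PRDM16. Its PRDM16 libraries also lay far apart, and the groups overlapped. NDRG1, a cytoplasmic protein induced by hypoxia and by other stress, had 341 and 759 FPKM against 360.3 and 338 FPKM, where 3 libraries were close together. The log2 changes were -0.50 (SE 0.35) for DDIT4 and -0.54 (SE 0.39) for NDRG1 (limma adjusted p = 0.690 for each), and against control vector replicate 1 alone they were -0.06 and 0.03.

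Of the 3 secreted and surface signals tested and alone at their locus, only ADM was lower in both PRDM16 libraries (beside 20.3% of all loci). ADM, the vasodilator peptide adrenomedullin, was at 102 and 127 FPKM with the control vector and 92.3 and 90.3 FPKM with PRDM16, 115 ± 17.6 against 91.3 ± 1.46 FPKM (SD, n = 2). The log2 change was -0.32 (SE 0.13, limma adjusted p = 0.689), and -0.16 against control vector replicate 1 alone. The stanniocalcins are secreted glycoprotein hormones with different patterns here. STC2 was at 229 and 451 FPKM against 264 and 181 FPKM, with control vector replicate 2 highest and an overlap of the groups, and its log2 change of -0.56 (SE 0.38) was -0.07 against control vector replicate 1 alone. STC1 was at 13.7 and 10.9 FPKM against 11.5 and 13.6 FPKM, with each group spanning the same range. The level of STC2 over STC1 thus ranged from 13.3 to 41.5 times.

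The chemokine receptor CXCR4 was near the floor, at 0.0929 and 0.0668 FPKM with the control vector and 0.118 and 0.174 FPKM with PRDM16. Both PRDM16 values were higher, at a level too low for the test. EFNA3, an ephrin ligand, shares its locus with EFNA4 and RP11-540D14.8. That locus was at 8.88 and 8.65 FPKM against 8.26 and 8.60 FPKM, with a log2 change of -0.05 (SE 0.09).

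Among the remaining genes, the mean was lower for 5 of 6 tested, 3 of them without overlap (beside 49.3% and 20.3% of all loci). WSB1, a substrate receptor of a ubiquitin ligase, was at 26.5 and 33.5 FPKM with the control vector and 24.8 and 25.4 FPKM with PRDM16, a log2 change of -0.24 (SE 0.14). ANKZF1, a factor of ribosome quality control, was at 18.5 and 24.0 FPKM against 18.3 and 17.6 FPKM, with a log2 change of -0.22 (SE 0.15). INSIG2, which holds the sterol sensor complex in the endoplasmic reticulum, was at 20.4 and 21.8 FPKM against 17.7 and 19.0 FPKM, with a log2 change of -0.19 (SE 0.10). Against control vector replicate 1 alone, INSIG2 kept a log2 change of -0.14, while WSB1 was at -0.08 and ANKZF1 at -0.04. TMEM45A, a transmembrane protein, was at 20.0 and 27.8 FPKM against 21.0 and 20.6 FPKM, so only control vector replicate 2 stood apart. RIOK3, an atypical kinase, was at 17.1 and 20.3 FPKM against 19.7 and 20.9 FPKM, with overlap.

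ANKRD37, an ankyrin repeat protein known as a strong HIF target, was scarcely above the minimum. It was at 1.14 and 2.23 FPKM with the control vector and 1.02 and 1.28 FPKM with PRDM16, again with control vector replicate 2 highest. PPFIA4, a liprin, was at 0.828 and 1.74 FPKM against 0.506 and 0.563 FPKM. Both PRDM16 values of PPFIA4 lay below both controls, 2.41-fold lower on the means, at a level under the minimum for the test.

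Over the 11 tested genes without overlap, the limma adjusted p ran from 0.689 to 0.887. With 2 libraries in each group, an exact permutation test (two-sided) has 0.333 as its smallest p, so none was run on single genes. On the log2 scale, KDM3A, PLOD2, CITED2, ADM and INSIG2 were lower by more than 0.1 against either control library alone. The limit of 0.1 was not planned, and the share of all loci that pass it was not computed. The median absolute log2 change over all loci was 0.13 with both control libraries. Both comparisons use the same PRDM16 libraries, and these genes were already among those without overlap, so they are not shown to respond more firmly.

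**Figure D3:**
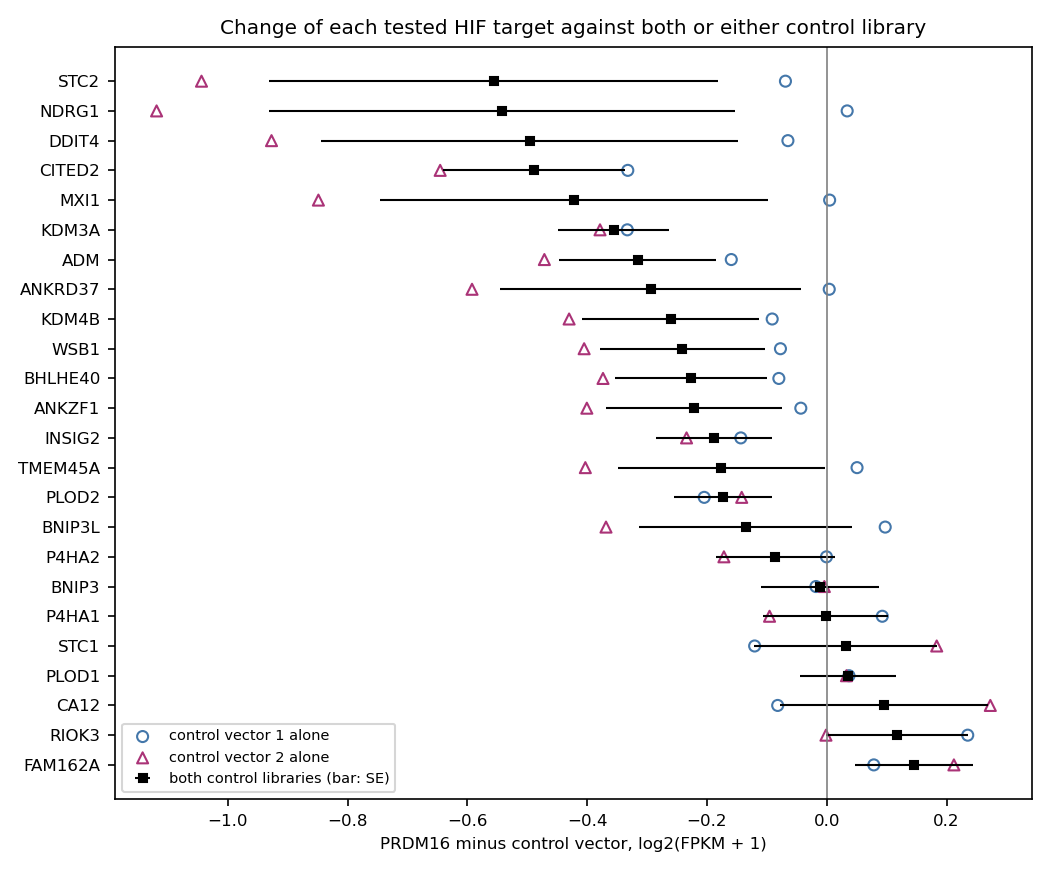
Difference PRDM16 minus control vector in log2(FPKM + 1) for the 24 tested HIF targets alone at their locus, ordered by size; black squares with SE bars use both control libraries, open circles control vector replicate 1 alone and open triangles replicate 2 alone. The symbols of KDM3A, PLOD2 and INSIG2 sit close together left of 0, while those of NDRG1, STC2, DDIT4 and MXI1 are far apart and lie near 0 against replicate 1, just above it for NDRG1 and MXI1 and just below it for STC2 and DDIT4.

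Replicate differences within the control vector were larger for these genes than over the table. The median absolute difference between the control libraries was 0.31 on the log2 scale for the 24 genes and 0.19 for all loci. Between the PRDM16 libraries it was 0.08 for the 24 genes and 0.10 for all loci. Control vector replicate 2 exceeded replicate 1 in 19 of 24 genes, beside 45.9% of all loci. DDIT4, MXI1, NDRG1 and STC2 differed by more than 0.8, a gap found in 3.11% of all loci. The control libraries differed by more than the 2 groups did in 17 of 24 genes (70.8%, beside 64.4% of all loci).

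**Figure D4:**
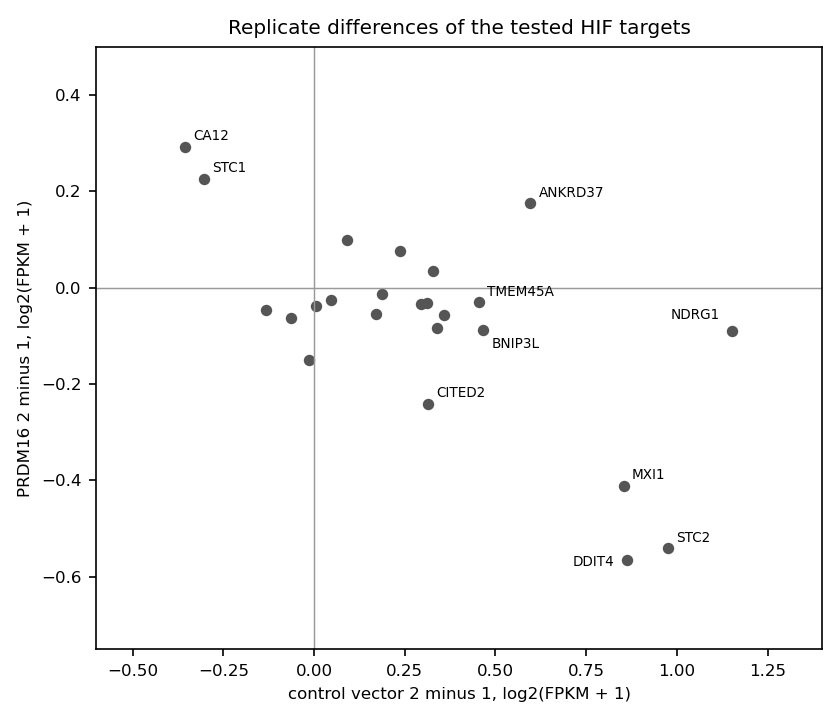
Replicate 2 minus replicate 1 in log2(FPKM + 1) for the 24 tested HIF targets, with the control vector pair on the horizontal axis and the PRDM16 pair on the vertical axis. DDIT4, STC2 and MXI1 lie at the lower right, higher in control vector replicate 2 and lower in PRDM16 replicate 2, while NDRG1 differs only within the control vector.

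Genes of 2 other programmes also stood apart in control vector replicate 2. Each library was placed by the median over genes of log2(FPKM + 1) minus the gene's mean of the 4 libraries. For the 24 HIF targets control vector replicate 2 stood at 0.27, and the other 3 libraries lay between -0.11 and -0.04. For 20 tested genes of the ATF4 and unfolded protein response, control vector replicate 2 stood at 0.65 and PRDM16 replicate 1 at 0.04. Control vector replicate 1 stood at -0.28 and PRDM16 replicate 2 at -0.33. No HIF target of this set is on that list as drawn up here, which does not make the 2 sets separate in their regulation. For 30 cell cycle genes control vector replicate 2 stood at -0.51 and the others between 0.11 and 0.23. Between the groups, 20 of 20 genes of the ATF4 and unfolded protein response had a lower mean with PRDM16 (median log2 change -0.30), 1 of them without overlap. All 30 cell cycle genes had a higher mean (median log2 change 0.34), 6 of them without overlap (beside 21.1% of all loci higher and 20.3% lower). None of either list was called by limma, and 0 had an unadjusted p under 0.05. The part of these programmes in the values of the HIF targets was not tested.

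For 24 tested HIF targets in glycolysis and growth factor signalling the library medians lay between -0.04 and 0.06, with control vector replicate 2 at -0.02. Of those 24, 16 had a lower and 8 a higher mean with PRDM16, 7 lay lower and 2 higher without overlap (beside 20.3% and 21.1% of all loci), none was called by limma (3 at an unadjusted p under 0.05), and the median log2 change was -0.03; the difference between the 2 sets was not tested. The 2 with the smallest p were IGFBP3, which binds insulin-like growth factors, at 560.0 and 637 FPKM against 311 and 325 FPKM, and ANGPTL4, a lipase inhibitor, at 9.69 and 6.24 FPKM against 14.8 and 21.2 FPKM. IGFBP3 was lower and ANGPTL4 higher without overlap.

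**Figure D5:**
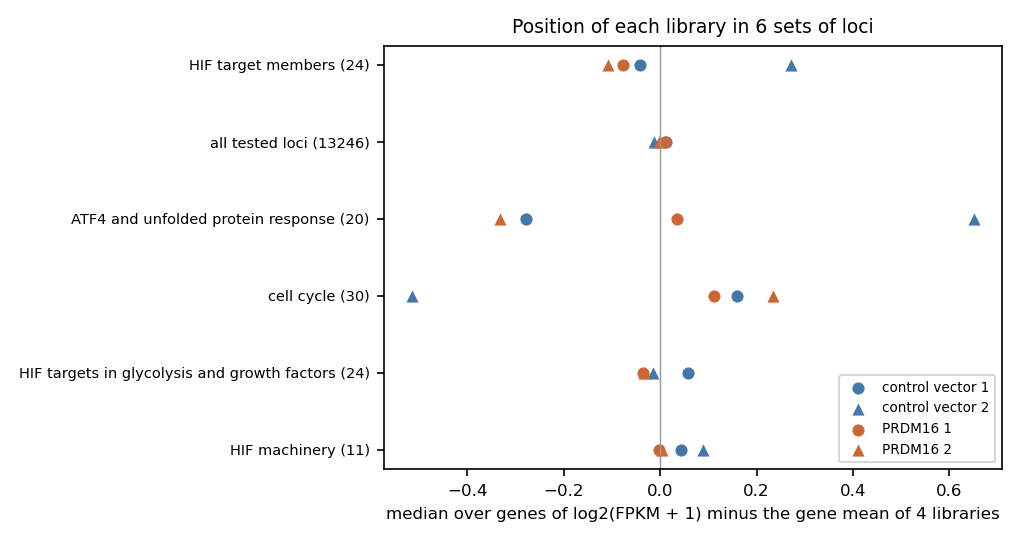
Median over genes of log2(FPKM + 1) minus the gene's mean of the 4 libraries, for each library and 6 sets of loci, with the number of loci in brackets; blue is control vector, orange PRDM16, circles replicate 1 and triangles replicate 2. Control vector replicate 2 is at 0.27 for the HIF targets described here, 0.65 for the ATF4 and unfolded protein response set and -0.51 for the cell cycle set.

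The machinery upstream gave 11 tested genes, of which 6 had a lower mean and 5 a higher mean, and control vector replicate 2 had the highest library median, at 0.09 with the others between -0.00301 and 0.04. In 4 of the 11 the PRDM16 libraries both lay lower (beside 20.3% of all loci), in none did both lie higher (beside 21.1%), and none was called by limma (2 at an unadjusted p under 0.05). EPAS1, the main HIF alpha subunit of 786-O cells, was at 79.6 and 141 FPKM with the control vector. With PRDM16 it was at 74.0 and 63.6 FPKM, lower without overlap. EPAS1 was highest in control vector replicate 2, as were 17 of the 24 targets, and a link between them was not tested. Its partner ARNT was at 20.1 and 21.6 FPKM against 19.1 and 16.1 FPKM, lower in both PRDM16 libraries. EGLN3, a prolyl hydroxylase that is itself a HIF target, was at 26.8 and 31.9 FPKM against 16.6 and 19.1 FPKM, and the coactivator CREBBP was at 20.8 and 22.5 FPKM against 18.5 and 16.9 FPKM, both without overlap. VHL overlapped, at 22.0 and 25.2 FPKM against 23.8 and 23.7 FPKM. The locus naming HIF1A together with SNAPC1 and RP11-618G20.1 was at 134 and 127 FPKM against 149 and 140.2 FPKM, higher in both PRDM16 libraries. That locus cannot be assigned to HIF1A alone, and its RNA level does not give the amount or activity of the HIF1A protein.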

How the data were processed

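Total RNA of 4 libraries of 786-O cells was sequenced, 2 with control vector and 2 with PRDM16, grouped by the labels' vector field. The submitters' processing notes name hg38 as the build, and as tools Trim Galore, TopHat2 2.1.0, Cuffdiff and Cufflinks 2.2.1. For annotation, scaling and strandedness, nothing is given in the sources used here. The values the authors deposited were read as FPKM from those tools and from their range (column sums of 556213 to 574003); the table's header does not name the unit. FPKM already correct for length and depth. Absolute depth is unknown, but the spacing of values under 0.3 FPKM put the other libraries at 1.17 to 1.40 times the depth of control vector replicate 1.

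Loci with a mean of at least 1 FPKM (13246) were fitted with limma 3.58.1 in R 4.3.3 on log2(FPKM + 1), a scale that understates changes of low genes, with a variance trend and Benjamini-Hochberg adjustment over all of them. SE are limma's moderated values, and the fit was tested on simulated data. Loci with several names (2365) give 1 summed value and were kept out of the counts of HIF targets, of the counts of the other lists and of the marker sums. The list of targets, their roles and the other lists were chosen with earlier results of these data known. Values in every library are given for all 31 genes, and changes with SE for those without overlap; the changes of DDIT4, NDRG1, STC2 and MXI1 and of loci with several names were added after their values were seen. From each other HIF list, preset genes and the 2 with the smallest p are named. Mitochondrially encoded loci (4 examined) were at 0 in all libraries, so a listed 0 may be a failed estimate. Gene symbols follow the table, with TCEB1 and TCEB2 matched through RefSeq synonyms. Python 3.11.15, pandas 2.3.3 and matplotlib 3.10.9 were used for tables and plots.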

Additional observations from a re-analysis of the deposited data

How the results depend on the processing

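In each of the 15 alternatives (pseudocounts, filters, scalings, variance models, the replicate block, each library left out, and loci with several names included) 0 of the HIF targets were called by limma. The planned count models were not run because the table holds no counts. With the replicate block 0 were called and 1 had an unadjusted p under 0.05; same-numbered libraries did not deviate together (correlation -0.06 over 13246 loci), so the numbers were not taken as pairs. The number with a lower mean was 15 to 20 with 1 library left out and 18 to 22 otherwise. The number lower in both PRDM16 libraries was 9 of 24 in the main setting, 10 of 27 without a filter, 12 of 28 with loci of several names, 9 in the other alternatives that kept all libraries, and 10 to 18 with 1 left out (18 without control vector replicate 1 and 15 without PRDM16 replicate 1), where fewer libraries have to lie apart and 27.6% to 40.7% of all loci did. The number higher was then 3 to 6 of 24, where 30.1% to 43.9% of all loci lay higher, and the median log2 change ran from -0.38 to -0.054. After quantile normalization 1 gene rather than 2 lay higher, since PLOD1 had a log2 change of -0.000794. With 1 library left out, NDRG1 ranged from -1.12 to 0.034 and MXI1 from -0.85 to 0.00481, each highest without control vector replicate 2. The other 263 of 266 values of single genes kept their sign. Most of these genes were followed because their groups did not overlap, so leaving out a library could not turn their sign. Filters, variance models and the replicate block leave the change itself as it was. The count is therefore no measure of stability. Loci called were 3, against 5 with a pseudocount of 0.1, 1 without a filter, 6 without a variance trend, 5 with robust variances, 5 with the block and 16 to 39 with 1 library left out. CA9, CXCR4 and PPFIA4 lay under the minimum level, and the reads behind their values are unknown.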
